A study of Sus scrofa with 4 samples.

Results

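The mitochondrial ribosomal proteins are the protein part of the ribosome that works inside mitochondria, and their genes carry the symbols MRPL for the large subunit and MRPS for the small subunit. Members were chosen by symbol alone, without use of their values, although earlier results of these data were known. Such a symbol was carried by 77 of the 30684 rows of the expression table, and 76 of these, of 16050 in all, held values. Of the 76 genes, 48 were MRPL genes and 28 were MRPS genes. The remaining row, MRPS12, which in mammals encodes a protein of the decoding centre, was listed as a lncRNA and had no values.

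The study asked how excess copper (Cu) affects the maturation of pig oocytes. Cumulus-oocyte complexes were aspirated from ovaries collected at a slaughterhouse and matured in vitro for 44 h, with 25 μg/mL Cu in the medium for one group and none added for the other. Each library was made from 3 oocytes at metaphase II, the stage at which a mature egg waits for fertilization, with Smart-seq2, which copies and amplifies polyadenylated RNA from single cells. Of 3 sets of oocytes per group, 2 libraries labelled Control (Control 1 and Control 2) and 2 labelled Cu (Cu 1 and Cu 3) were analysed here. The direction of every difference below rests on these labels, for which the values of the members hold no independent check. All 4 came from female, unmodified pig oocytes, and nothing in the labels says whether the libraries came from different animals, so that the tests measure the spread between these libraries only. A library is a pool of whole oocytes, and a loss of RNA per cell cannot be told apart from a different mix of cells within it.

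Mitochondria keep a small genome of their own that encodes core subunits of the respiratory chain and of the ATP synthase, and only the mitochondrial ribosome translates them. All of its proteins are encoded in the nucleus, made in the cytosol and imported. Some descend from proteins of the bacterial ribosome, and others exist only in mitochondria. An oocyte passes on its mitochondria to the embryo, and a fully grown oocyte is largely silent in transcription, so that its mRNA is mostly a stored supply that is kept, translated or degraded during maturation.

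Expression was measured in FPKM, a fragment count scaled to the length of the transcript and the size of the library, which lets genes be compared within a library. The depth of the libraries is unknown. Group means that the authors computed were deposited beside the libraries. For 38 of the 76 members the authors' Control mean lay outside the range of Control 1 and Control 2, and for 13 their Cu mean lay outside that of Cu 1 and Cu 3, so that these means rest on more than the libraries analysed here. The summed FPKM ran from 616082 to 672681. Cu 1 stood apart from the other libraries: 9364 genes reached 1 FPKM there, against 7923 to 8162 in the others. Across the 76 members, Spearman's correlation of the levels was 0.98 between Control 1 and Control 2, 0.96 and 0.98 between Cu 3 and the Control libraries, and 0.93 for Cu 1 with each of the other libraries. The points are genes of shared libraries and not independent replicates. The main medians and several fold changes are therefore also given without Cu 1, whereas the counts at an unadjusted p are given only with it. The oocyte gene DPPA3 (2649 to 3654 FPKM) was abundant in all libraries, whereas others such as DDX4 (2.52 to 4.59 FPKM) were low. Together, 15 listed oocyte markers made up 1.71% and 2.07% of all FPKM in the Control and 2.11% and 1.77% in the Cu libraries. Of 16 listed cumulus and granulosa cell markers, 10 had values. These summed to 4.12 and 4.54 FPKM in Control 1 and 2 and to 5.04 and 2.63 FPKM in Cu 1 and Cu 3. AMH, which marks granulosa cells, was listed at 0 in all 4, whereas GATM was at 1.62 to 2.75 FPKM and VCAN at 0.49 to 1.43 FPKM.

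The mitochondrial ribosomal protein genes covered a very wide range of levels. Their mean over the 4 libraries ran from 0.108 FPKM for MRPL12 to 1941 FPKM for MRPS17, with a median of 18.6 FPKM. The mean was 100 FPKM or more for 16 genes, 10 to under 100 for 34, 1 to under 10 for 21, and under 1 for 5. The median was 15.4 FPKM for the large subunit and 35.6 FPKM for the small subunit. A filter of 1 FPKM in at least 2 libraries left 8541 genes for the tests, among them 69 of the 76 members, 44 of the large and 25 of the small subunit.

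**Figure D1:**
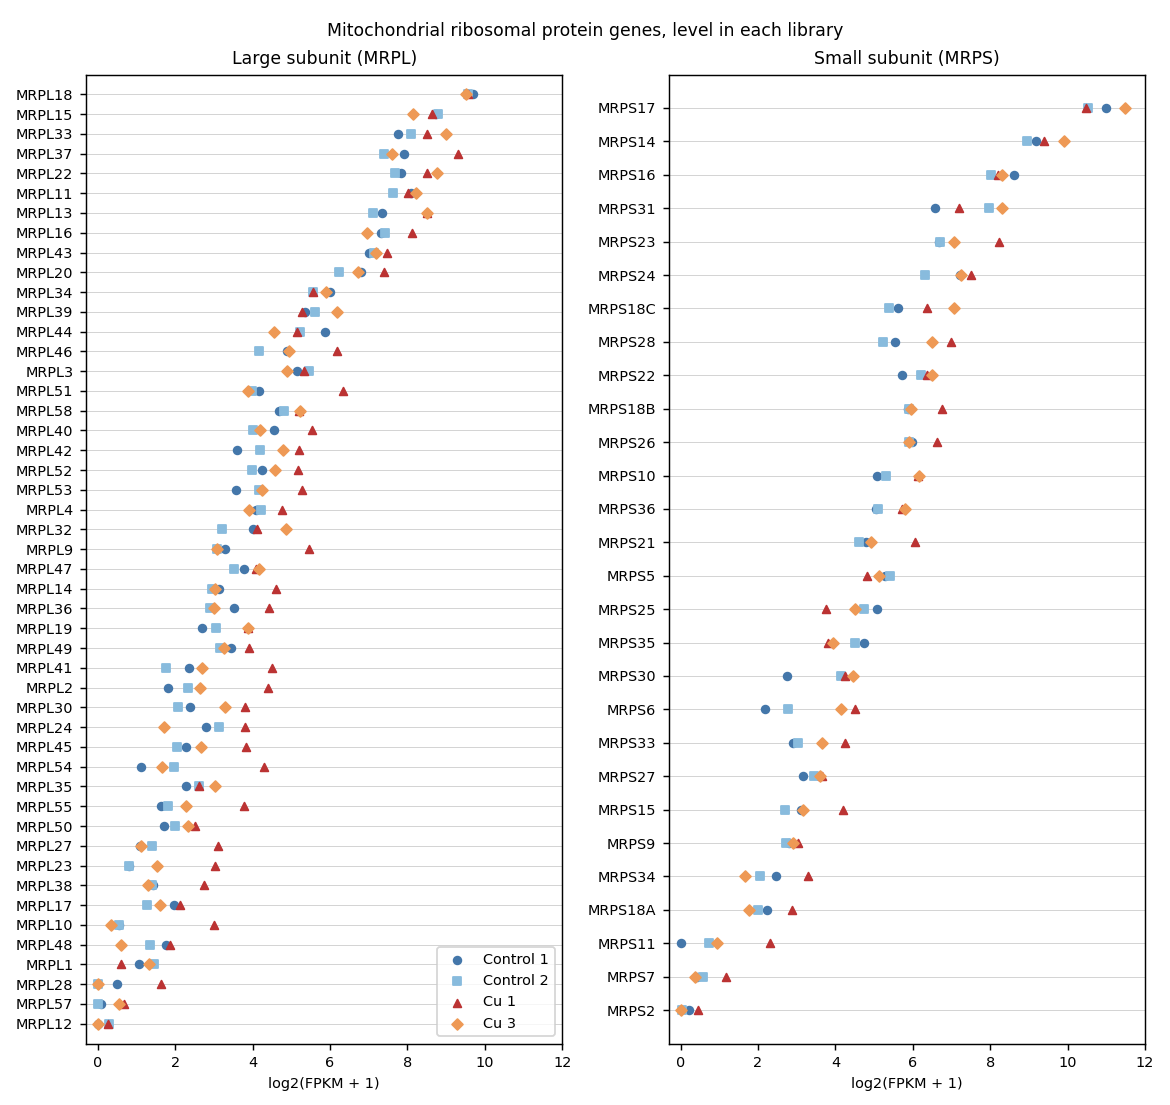
Level of each of the 76 genes as log2(FPKM + 1) on the horizontal axis, with 1 row per gene ordered by its mean and 1 point per library (blue circle Control 1, light blue square Control 2, red triangle Cu 1, orange diamond Cu 3). The 2 Control points mostly lie together, while the Cu 1 point is the rightmost in 48 of the 76 rows. Cu 1 was the highest library in 8022 of all 16050 genes with values.

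The most abundant small subunit genes were MRPS17, MRPS14 and MRPS16, all homologs of bacterial small subunit proteins. MRPS17 was at 2038 and 1466 FPKM in Control 1 and Control 2, at 1411 FPKM in Cu 1 and at 2849 FPKM in Cu 3. The Cu libraries thus held both the lowest and the highest level, and the log2 fold change of Cu over Control was 0.21 ± 0.39 (SE, limma on log2(FPKM + 1), 2 libraries per group, adjusted p = 0.916). This direction turned to −0.29 when Cu 3 was left out. MRPS14 was at 579 and 492 FPKM in the Control libraries and at 670 and 955 FPKM in Cu 1 and Cu 3. The groups did not overlap, with a log2 fold change of 0.58 ± 0.29 (limma adjusted p = 0.710). The authors' means of MRPS14 lay closer together, at 690 FPKM for Control and 813 FPKM for Cu, a log2 ratio of 0.24. MRPS16, whose protein is needed early in small subunit assembly, was at 392 and 259.7 FPKM in the Control libraries and at 292 and 314 FPKM in the Cu libraries. These Cu values lay between the Control values (log2 fold change −0.07 ± 0.30, limma adjusted p = 0.961).

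In the large subunit, MRPL18, MRPL15 and MRPL33 were highest, and all of them have bacterial counterparts. MRPL18 was at 828 and 756 FPKM in Control 1 and 2 and at 750.4 and 731 FPKM in Cu 1 and Cu 3, a spread of 731 to 828 FPKM over all libraries (log2 fold change −0.09 ± 0.24, limma adjusted p = 0.940). MRPL15 was at 423 and 439 FPKM in the Control and at 394 and 283 FPKM in the Cu libraries. Both Cu values were below both Control values, with a log2 fold change of −0.37 ± 0.28 (limma adjusted p = 0.790). MRPL33, by contrast, was at 215 and 272 FPKM in the Control libraries and at 363 and 507 FPKM in the Cu libraries, with no overlap (log2 fold change 0.83 ± 0.30, limma adjusted p = 0.656). The authors' means of MRPL33 were 369.9 FPKM for Control and 392 FPKM for Cu, a log2 ratio of 0.08, so that this difference was not seen in them. The most abundant members of the family therefore did not share a direction.

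A few genes carried much of the family's summed FPKM. The 5 genes with the highest mean made up 57.7% and 55.9% of the members' summed FPKM in Control 1 and 2, 42.6% in Cu 1 and 58.3% in Cu 3. MRPS17 alone was 52.9%, 46.4%, 36.7% and 52.2% of the small subunit sum in Control 1, Control 2, Cu 1 and Cu 3. As a share of all FPKM, the family was at 1.08% and 0.995% in the Control and at 1.27% and 1.36% in the Cu libraries. The large subunit was at 0.493% and 0.482% against 0.692% and 0.548%. For the small subunit the order was less clear, at 0.589% and 0.513% for Control, 0.582% for Cu 1 and 0.811% for Cu 3. Without MRPS17 it was at 0.277% and 0.275% against 0.368% and 0.387%. Apart from the small subunit with MRPS17, these shares of all FPKM were higher in both Cu libraries than in both Control libraries, but with 2 libraries against 2 the exact two-sided permutation test cannot go below p = 0.333.

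No member passed an adjusted p of 0.05 between Cu and Control. In the limma fit none of the 8541 genes did, a background of 0%, and the smallest adjusted p of a member was 0.631. At an unadjusted p of 0.05, 12 of the 69 tested members (17.4%) were higher in the Cu libraries, against 5.58% of all tested genes, and 0 were lower, against 1.43%. The 12 were MRPL13, MRPL19, MRPL22, MRPL23, MRPL30, MRPL33 and MRPL42 of the large subunit and MRPS6, MRPS10, MRPS18C, MRPS28 and MRPS33 of the small subunit. MRPL23 could pass the filter only through the Cu libraries, and 11 are left without it. It is also among the members counted below as separated upwards, as having a log2 fold change of 1 or more, or as high in Cu 1. Of all 8541 tested genes, 183 likewise passed through the Cu libraries alone. With an added limit of 1.5 on the log2 fold change, 1 member was higher (MRPS6, 1.45% of members), against 1.76% of all tested genes, and 0 were lower, against 0.117%.

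More members were separated than passed any of these limits. The Cu values both exceeded the Control values for 35 of 69 members (50.7%), against 25.4% of all tested genes, and below them for 6 (8.7%), against 13.4%. Separation upwards held for 19 of 44 MRPL genes (43.2%) and 16 of 25 MRPS genes (64%). The 6 genes that were separated downwards were MRPL15, MRPL18, MRPL44, MRPS5, MRPS25 and MRPS35. A stricter count asked that the difference between the groups exceed the gap between the Control libraries and the gap between the Cu libraries. It was met upwards by 20 members (29%), against 15.8% of all tested genes, and downwards by 4 (5.8%), against 9.25%.

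The family as a whole stood above the typical gene. The median log2 fold change was 0.58 over the 69 members and 0.16 over all tested genes, and 57 members (82.6%) had a positive value, against 64.3% of all genes. The median was 0.60 for the large and 0.49 for the small subunit, a difference of 0.11. Positive values were found for 36 of 44 MRPL and 21 of 25 MRPS genes. Without Cu 1 the median was 0.31 for the members and 0.0023 for all genes, and 44 of 69 members (63.8%) had a positive value, against 50.3% of all genes. The large subunit was then at 0.17 and the small subunit at 0.38, so that the order of the subunits turned. Without Cu 3 the medians were 0.87 and 0.75. On the authors' means the median log2 ratio was 0.40 for the 69 tested members and 0.11 for all tested genes. Of the 35 members separated upwards, 32 were higher in Cu on the authors' means and 3 (MRPL47, MRPS9 and MRPS36) were lower. Those means rest in part on the same libraries, so that this count is no independent check. They were higher in Cu for 53 of the 69 tested members and for 5299 of the 8541 tested genes. The 15 tested oocyte markers had a median of 0.49, with 10 positive, and their part in these values was not tested.

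**Figure D2:**
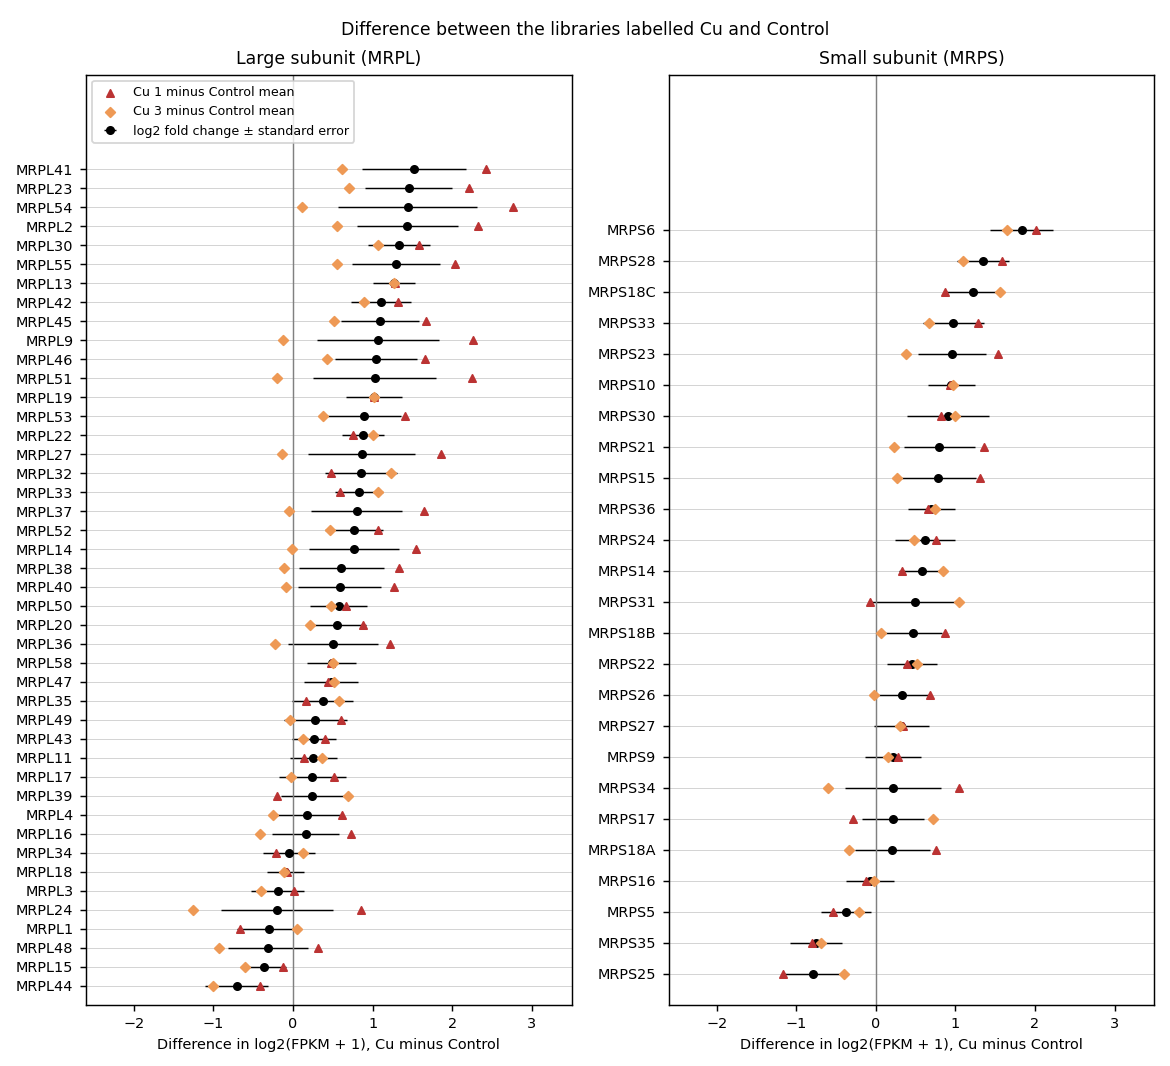
Difference of Cu from Control in log2(FPKM + 1) on the horizontal axis for the 69 tested genes, 1 row per gene, with black points and bars for the fitted log2 fold change and its standard error. Red triangles and orange diamonds give Cu 1 and Cu 3 alone minus the same Control mean, and for many large subunit genes the triangle lies far to the right of the diamond.

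MRPS6, the homolog of bacterial S6, had the highest log2 fold change of the family with a pseudocount of 1. With a pseudocount of 0.1 it was at 2.02 and MRPL23 was higher, at 2.13. It was at 3.57 and 5.86 FPKM in Control 1 and Control 2 and at 21.6 and 16.6 FPKM in Cu 1 and Cu 3. Both Cu libraries were well above both Control libraries, 4.04-fold on the means of these libraries, with a log2 fold change of 1.83 ± 0.39 (limma adjusted p = 0.631) and 1.65 without Cu 1. The authors' means of 9.70 FPKM for Control and 17.2 FPKM for Cu lay closer together, with a log2 ratio of 0.77. Its span at chr13:197687906-197756773 (Sscrofa11.1) overlaps SLC5A3, a transporter gene that was at 0.06 FPKM or less in every library.

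The next highest values belonged to large subunit genes that were low in Control oocytes and high in Cu 1. MRPL41 was at 4.12 and 2.42 FPKM in Control 1 and 2, at 21.6 FPKM in Cu 1 and at 5.42 FPKM in Cu 3 (log2 fold change 1.52 ± 0.65, limma adjusted p = 0.708). MRPL23, whose bacterial counterpart lies at the mouth of the exit tunnel, was at 0.76 FPKM in both Control libraries, at 7.12 FPKM in Cu 1 and at 1.87 FPKM in Cu 3 (1.46 ± 0.55). MRPL23 was the only member that passed the filter through the Cu libraries alone, and its p-value is therefore no support for a difference. Both genes kept the Cu libraries above the Control libraries, but Cu 1 exceeded Cu 3 by 3.98-fold and 3.81-fold. MRPL2, which helps to shape the peptidyl transferase centre, was at 2.53 and 4.05 FPKM against 20.1 FPKM in Cu 1 and 5.20 FPKM in Cu 3 (1.44 ± 0.64, adjusted p = 0.708). MRPL54, a protein particular to mitochondria, was at 1.18 and 2.89 FPKM in the Control libraries, at 18.8 FPKM in Cu 1 and at 2.15 FPKM in Cu 3 (1.44 ± 0.88, adjusted p = 0.756). For MRPL54 the Cu 3 value lay between the Control values, and without Cu 1 its log2 fold change was 0.11. Without Cu 1, MRPL41, MRPL23 and MRPL2 were at 0.62, 0.71 and 0.55.

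At the other end, MRPS25, MRPS35, MRPL44, MRPS5 and MRPL15 had the lowest values. MRPS25, a mitochondrion-specific protein, was at 32.9 and 25.7 FPKM in the Control and at 12.4 and 21.7 FPKM in the Cu libraries (log2 fold change −0.79 ± 0.40, limma adjusted p = 0.717). MRPS35, also specific to mitochondria, was at 25.6 and 21.9 FPKM against 13.1 and 14.3 FPKM (−0.75 ± 0.33, adjusted p = 0.708), and its Cu values lay close together. MRPL44, which has the fold of an RNase III enzyme, was at 58.0 and 36.6 FPKM against 34.3 and 22.5 FPKM (−0.71 ± 0.39, adjusted p = 0.730). MRPS5, the homolog of bacterial S5 at the mRNA entrance, was at 37.7 and 41.6 FPKM against 26.9 and 34.2 FPKM (−0.37 ± 0.32, adjusted p = 0.805). In each of these genes both Cu libraries were below both Control libraries, and none reached an unadjusted p of 0.05 in limma. No member had a log2 fold change of −1 or less, against 0.843% of all tested genes, whereas 16 members (23.2%) had one of 1 or more, against 7.6%. Cu 3 alone was more than 1 above the Control mean in 10 members (14.5%), against 4.78% of all tested genes.

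Among the genes of the lower p-values, 3 had Cu libraries that lay close to each other and were chosen here after their values were seen. MRPL13, the homolog of bacterial L13, was at 162 and 137 FPKM in the Control libraries and at 362 and 361 FPKM in the Cu libraries (log2 fold change 1.27 ± 0.26, limma adjusted p = 0.631). MRPS10 was at 32.8 and 38.7 FPKM against 69.1 and 70.4 FPKM, and MRPL19 at 5.51 and 7.29 FPKM against 13.8 and 13.9 FPKM. The log2 fold change of MRPS10 was 0.95 and that of MRPL19 was 1.02. The Cu libraries differed from each other by 0.0047 in MRPL13, by 0.028 in MRPS10 and by 0.0019 in MRPL19 on the log2 scale, far less than they differed from the Control libraries. The authors' Cu means of MRPL13, MRPS10 and MRPL19, 336, 76.4 and 11.6 FPKM, lay outside the range of Cu 1 and Cu 3. On the authors' means their log2 ratios were 0.87, 1.01 and 0.65.

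Several members were described for their roles whatever their values. MRPL12 forms the flexible stalk that recruits translation factors, and it was nearly undetected, at 0.23 FPKM or less in every library and listed at 0 in Control 1 and Cu 3. MRPL11, at the base of the same stalk, was at 272 and 198 FPKM in the Control and at 256 and 299.6 FPKM in the Cu libraries, with overlapping groups (log2 fold change 0.26 ± 0.29, limma adjusted p = 0.848). Of genes linked to inherited defects of mitochondrial translation in humans, MRPL3 was at 34.7 and 42.6 FPKM against 38.9 and 28.9 FPKM (−0.19 ± 0.33, adjusted p = 0.910). MRPS22, another of these, was at 51.8 and 73.5 FPKM against 81.2 and 88.6 FPKM (0.45 ± 0.32, adjusted p = 0.779) and did not overlap between groups. MRPS34 was at 4.50 and 3.17 FPKM against 8.86 FPKM in Cu 1 and 2.15 FPKM in Cu 3, so that the Cu libraries lay on either side of the Control libraries. Its log2 fold change of 0.22 ± 0.60 (limma adjusted p = 0.945) was −0.60 without Cu 1.

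MRPL58, a peptidyl-tRNA hydrolase built into the large subunit that can free stalled ribosomes, was at 24.6 and 26.9 FPKM in the Control and at 36.03 and 36.7 FPKM in the Cu libraries (log2 fold change 0.49 ± 0.30, limma adjusted p = 0.757). MRPS30, which lies in the large subunit in spite of its symbol, was at 5.74 and 16.6 FPKM against 18.1 and 20.7 FPKM (0.91 ± 0.52, adjusted p = 0.743). Its Control libraries differed from each other more than Control 2 did from the Cu libraries, and the log2 ratio of its authors' means was 0.27. MRPS36, now known as a subunit of the 2-oxoglutarate dehydrogenase complex and not of the ribosome, was at 31.99 and 33.2 FPKM against 52.0 and 55.1 FPKM (0.70 ± 0.29, adjusted p = 0.708). The authors' means of MRPS36 went the other way, 59.5 FPKM for Control and 49.8 FPKM for Cu, with a log2 ratio of −0.25. Counting MRPS30 and MRPS18A with the large subunit and leaving MRPS36 out gave medians of 0.60 and 0.48, in place of 0.60 and 0.49.

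Mammals carry 3 genes derived from the bacterial S18 gene, and these differed in both level and pattern. MRPS18A was lowest, at 3.68 and 3.02 FPKM in Control 1 and 2, 6.30 FPKM in Cu 1 and 2.43 FPKM in Cu 3 (log2 fold change 0.21 ± 0.47, limma adjusted p = 0.932). MRPS18B was at 57.6 and 58.5 FPKM against 107 FPKM in Cu 1 and 60.9 FPKM in Cu 3 (0.47 ± 0.36, adjusted p = 0.790). MRPS18C was at 47.9 and 40.8 FPKM against 81.9 FPKM in Cu 1 and 132 FPKM in Cu 3 (1.22 ± 0.35, adjusted p = 0.641). Only in MRPS18C of the 3 was Cu 3 the higher of the Cu libraries. Without Cu 1 the values of MRPS18A, MRPS18B and MRPS18C were −0.34, 0.07 and 1.56. On the authors' means their log2 ratios were 0.45, 0.38 and 0.79. The span of MRPS18C at chr8:135019702-135026719 overlaps HELQ, which had a log2 fold change of −0.30.

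Of the 7 members that did not pass the filter, 6 had their highest value in Cu 1 and MRPL12 had it in Control 2. Over all 16050 genes with values, 8022 had their highest value in Cu 1. MRPL10 was at 0.47 FPKM in both Control libraries and at 0.26 FPKM in Cu 3, against 7.08 FPKM in Cu 1. MRPS11 was listed at 0 in Control 1 and was at 0.65, 3.94 and 0.92 FPKM in Control 2, Cu 1 and Cu 3. MRPL28 reached 2.12 FPKM in Cu 1 and was at 0.42 FPKM or listed at 0 elsewhere. Of the others, MRPS7 reached 1.25 FPKM in Cu 1, and MRPL57 and MRPS2 stayed at 0.59 FPKM or less. A gene listed at 0 may have been missed, since the depth behind these values is not known.

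The libraries of the Cu group differed from each other more than those of the Control group. Over the 69 tested members, the median size of the difference was 0.30 between Control 1 and Control 2 and 0.67 between Cu 1 and Cu 3 on the log2 scale. For all tested genes these medians were 0.27 and 0.56. The Cu gap was the larger of both in 48 members, a count for which the share over all tested genes is not given here. It exceeded 1 in 26 members (37.7%), against 24.7% of all tested genes, and the Control gap did so in 2 members (2.9%), against 4.73%. Of the 44 MRPL genes, 19 (43.2%) were higher in Cu 1 than in Cu 3 by more than 1, against 20.6% of all tested genes, and 0 were lower by as much, against 4.06%. Of the 25 MRPS genes, 5 (20%) were higher, close to the share over all genes, and 2 (8%) were lower. The signed median of Cu 1 minus Cu 3 was 0.63 for MRPL genes, 0.03 for MRPS genes and 0.30 for all tested genes. The difference between the subunits was not tested.

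**Figure D3:**
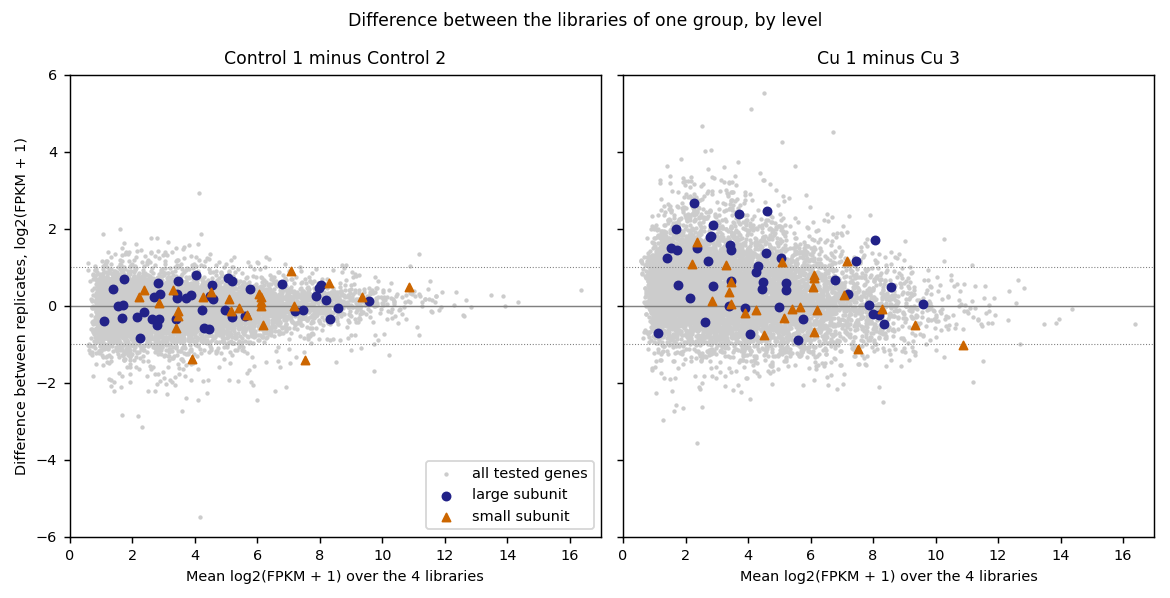
Difference between the libraries of 1 group in log2(FPKM + 1), Control 1 minus Control 2 on the left and Cu 1 minus Cu 3 on the right, against the mean log2(FPKM + 1) of the 4 libraries. Grey points are all 8541 tested genes, blue circles MRPL genes and orange triangles MRPS genes, and 26 of the 69 members lie beyond the dotted lines at 1 and −1 on the right against 2 on the left.

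The gap between the Cu libraries was widest for weakly expressed members. Among the 19 tested members with a mean under 10 FPKM, the median of Cu 1 minus the Control mean was 1.31 and that of Cu 3 minus the same mean was 0.16. For the 34 members from 10 to under 100 FPKM the medians were 0.84 and 0.34, and for the 16 members at 100 FPKM or more they were 0.50 and 0.37. All tested genes in the same ranges gave 0.42, 0.19 and 0.05 for Cu 1 and 0.02, −0.05 and 0.10 for Cu 3. The abundant members of the subunits differed in this, with medians of 0.66 for Cu 1 and 0.17 for Cu 3 over 10 MRPL genes and of 0.13 and 0.60 over 6 MRPS genes at 100 FPKM or more. Cu 1 was more than 1 above the Control mean in 28 members (40.6%), against 19.7% of all tested genes, and Cu 3 in 10 (14.5%), against 4.78%. Both differences share the Control libraries.

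Each Cu library was also fitted alone against both Control libraries, which assumes that the single library varies as the Control libraries do. With Cu 1, 29 of 69 members (42%) were higher at a limma adjusted p of 0.05, against 17.4% of all tested genes, and 1 (MRPS25) was lower, against 3.1%. These comprised 20 of 44 MRPL genes (45.5%) and 9 of 25 MRPS genes (36%). With Cu 3, 3 members (4.35%) were higher, MRPL13, MRPS6 and MRPS18C, against 1.56% of all genes, and 0 were lower, against 0.621%. The 2 fits share the Control libraries. Their counts describe single libraries and not the Cu treatment.

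Members were further grouped by their names in the common nomenclature of ribosomal proteins, in which MRPS18A and MRPS18B count as mitochondrion-specific. The median log2 fold change of the 26 tested large subunit genes with a bacterial counterpart was 0.52, and that of the 18 found only in mitochondria was 0.69. In the latter, Cu 1 alone stood at 1.29 and Cu 3 alone at 0.25. In the small subunit the order was the other way round, at 0.70 for 12 genes with a bacterial counterpart and 0.45 for 13 mitochondrion-specific genes. The medians of Cu 1 and Cu 3 alone were 0.81 and 0.60 in the former and 0.68 and 0.31 in the latter. With MRPS18A and MRPS18B counted by their bacterial origin and MRPS36 left out, the small subunit medians were 0.60 for 14 genes and 0.39 for 10 genes. Over both subunits the medians were 0.60 for genes with a bacterial counterpart and 0.57 for mitochondrion-specific genes.

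The members were spread over the genome. On Sscrofa11.1, 74 of the 76 genes lay on 17 chromosomes, with at most 10 on one of them, chromosome 3, and 2 lay on unplaced sequence. The spans of 25 members overlapped another annotated gene. Whether the counting used strand is not given in the sources used here, so that for these genes reads from a partner cannot be told apart. Examples are MRPS22 with COPB2, which had a log2 fold change of −0.18, and MRPS25 with NR2C2, which was at 4 to 5.35 FPKM in all libraries. Other partners were more abundant than the member and, like it, highest in Cu 1. MIF4GD, over MRPS7, was at 37.1 and 38.2 FPKM in the Control and at 69.9 and 17.7 FPKM in the Cu libraries. EME1, over MRPL27 (named outside the rule given below), was at 18.4 and 24.65 FPKM against 44.4 and 20.5 FPKM. The part of such partners in the members' values was not tested.

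The rest of the mitochondrial translation system was read from fixed lists. The 5 mitoribosomal proteins with other symbols (DAP3, PTCD3, AURKAIP1, CHCHD1 and GADD45GIP1) had a median log2 fold change of 0.33, and 0 passed an unadjusted p of 0.05. DAP3, a GTP-binding protein of the small subunit, was at 2.45 and 3.71 FPKM in the Control and at 3.27 and 3.40 FPKM in the Cu libraries. GADD45GIP1 of the large subunit was at 0.89 and 1.55 FPKM against 28 FPKM in Cu 1 and 2.07 FPKM in Cu 3, the same shape as in MRPL23 and MRPL2.

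Of 14 translation factors with values, 13 were tested, with a median of 0.22. At an unadjusted p of 0.05 in limma, 1 of them was higher, against 5.58% of all tested genes. In so short a list this count cannot be told from the background. The gene was SLIRP, which with LRPPRC protects mitochondrial mRNA. It was at 12.2 and 22.2 FPKM in the Control libraries and at 73.9 and 54.9 FPKM in the Cu libraries (log2 fold change 1.89 ± 0.40, limma adjusted p = 0.631). Its partner LRPPRC was at 24.2 and 19.6 FPKM against 19.6 and 20.99 FPKM (−0.10 ± 0.33, adjusted p = 0.955). The elongation factor TUFM was at 3.74 and 3.09 FPKM against 8.66 FPKM in Cu 1 and 3.28 FPKM in Cu 3, again with the higher value in Cu 1.

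Assembly factors of the mitochondrial ribosome had a median of 0.51 over 14 tested genes of 20 with values. At an unadjusted p of 0.05 in limma, 1 was higher, against 5.58% of all tested genes, which again cannot be told from the background. TFB1M, which methylates the rRNA of the small subunit, was at 11.4 and 7.47 FPKM in the Control and at 26.8 and 22.6 FPKM in the Cu libraries (log2 fold change 1.32 ± 0.37, limma adjusted p = 0.641). MALSU1, which keeps the large subunit from joining too early, was at 3.68 and 4.55 FPKM against 26.8 FPKM in Cu 1 and 5.88 FPKM in Cu 3 (1.44 ± 0.68, adjusted p = 0.708). In both genes the groups did not overlap, although Cu 3 was close to Control for MALSU1.

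The mitochondrial aminoacyl-tRNA synthetases and related enzymes, which charge the tRNAs, did not share the positive median. Over 10 tested genes of 19 with values it was −0.05, and 4 were positive. YARS2, the tyrosine enzyme, was at 3.30 and 5.09 FPKM in the Control and at 1.42 and 1.30 FPKM in the Cu libraries and was the only gene of this list under an unadjusted p of 0.05 (log2 fold change −1.12 ± 0.37, limma adjusted p = 0.656). At this limit 1.43% of all tested genes were lower. RARS2, the arginine enzyme and by far the most abundant, was at 492 and 513 FPKM against 242 FPKM in Cu 1 and 420.1 FPKM in Cu 3 (−0.65 ± 0.33, adjusted p = 0.725).

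The ribosomal proteins of the cytosol stood higher than those of mitochondria. The median log2 fold change of the 80 tested genes was 1.38, and all 80 were positive, against 64.3% of all tested genes. In 67 neither Cu value was as low as either Control value, which held for 25.4% of all tested genes. Without Cu 1 their median was 0.71, against 0.31 for the mitochondrial ribosomal proteins and 0.0023 for all genes. Without Cu 1, the factors, the assembly factors and the synthetases were at −0.04, 0.07 and −0.18. The differences between the lists were not tested.

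**Figure D4:**
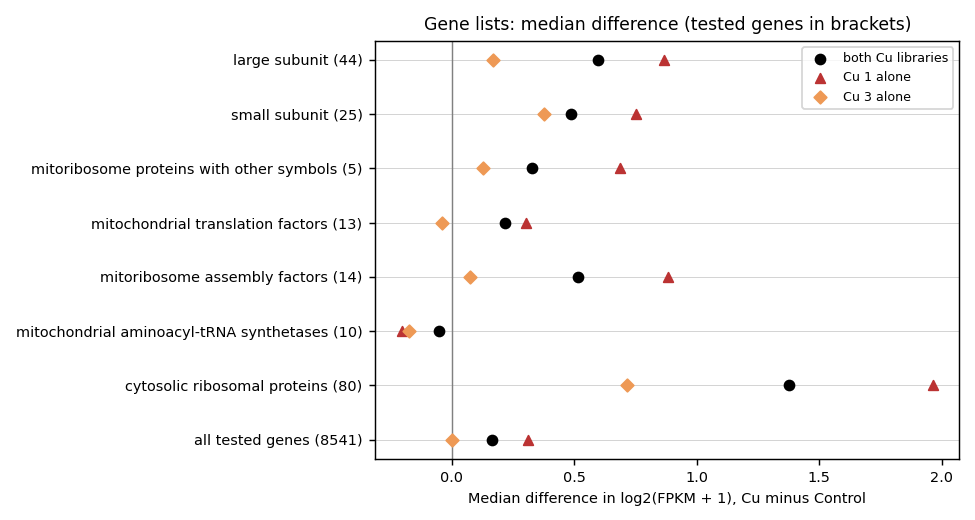
Median difference of Cu from Control in log2(FPKM + 1) for each gene list, with the number of tested genes in brackets. Black circles use both Cu libraries, red triangles Cu 1 alone and orange diamonds Cu 3 alone, and both subunits lie above all tested genes (0.16) and below the cytosolic ribosomal proteins (1.38).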

How the data were processed

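Smart-seq2 libraries of porcine metaphase II oocytes were analysed, 2 labelled Control and 2 labelled Cu. The values the authors deposited are FPKM, rounded to 2 decimals. The methods name SOAPnuke, HISAT2, Bowtie2 and RSEM, whereas the submitters' processing notes per the labels name TopHat2 2.0.13, Cufflinks 2.2.1, Cuffnorm and Cuffdiff with Sscrofa11.1. Which of these made the table is not stated. The depth is unknown, and no interval or detection floor that needs it is given. The authors' mean FPKM of each group, which rests on more than the libraries analysed here, was used only as an alternative.

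Genes with at least 1 FPKM in at least 2 libraries were compared on log2(FPKM + 1) by limma-trend (limma 3.58.1, R 4.3.3), and p-values were adjusted by the Benjamini-Hochberg method across all 8541 of them. All fold changes are on this scale, which makes differences of weakly expressed genes smaller. The fit was tested on simulated data. The members and the gene lists were chosen with earlier results of these data known. Members named were the 3 most abundant of each subunit, those at an unadjusted p of 0.05 or less whose log2 fold change reached 1.5, the 5 highest and the 5 lowest fold changes, and 15 chosen by role. Members named outside this rule are said to be so, are listed with a count, or are those that did not pass the filter. Positions come from RefSeq for Sscrofa11.1, in which all 76 members were found by identifier. Alternatives were a pseudocount of 0.1, no filter or a filter on every library, quantile normalization, median-of-ratios scaling, a fit without the variance trend, the authors' means, subunits by structure, and leaving out each library.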

Additional observations from a re-analysis of the deposited data

How the results depend on the processing

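A pseudocount of 0.1 raised the higher members that met both limits (unadjusted p 0.05, log2 fold change 1.5) from 1 to 3. The share of all tested genes that met both limits with this pseudocount is not given here, so that the rise has no background. With median-of-ratios scaling 23 members in place of 35 had their Cu values above their Control values, the small subunit median was 0.24, and MRPS17, MRPS18A and MRPS34 turned to −0.034, −0.0037 and −0.0025. With quantile normalization 26 members had their Cu values above their Control values, and MRPS18A and MRPS34 turned to −0.062 and −0.054. The share of all tested genes separated under either scaling is not given here, so that these counts have no background. These scalings moved the median of all genes from 0.16 to −0.04 and −0.05, and that of the members from 0.58 to 0.35 and 0.37. On the authors' means, tried for single genes after seeing the data, MRPS36 turned to −0.25. Across the settings that changed the fit and on the authors' means, the member median was 0.29 to 0.49 above that of all genes.

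Leaving out each library in turn gave 0 to 30 members past an adjusted p of 0.05 and 0 to 16 higher members at both limits. A lone library is there assumed to vary like the other group. In these settings 39 to 54 members had every remaining Cu value above every remaining Control value, and 8 to 16 had them below. A lone library is separated more easily, so these counts cannot be compared with the 35 and 6 of the main fit. The share of all tested genes separated in these settings is not given here. The medians were 0.17 to 0.87 (large) and 0.38 to 0.75 (small), with differences between the subunits of −0.21 to 0.23. The lowest medians came without Cu 1 and the highest without Cu 3. The log2 fold changes ranged from −0.40 to 0.015 for MRPL3, −0.37 to 0.22 for MRPS16, −0.29 to 0.72 for MRPS17, −0.34 to 0.75 for MRPS18A and −0.60 to 1.04 for MRPS34. Of 249 alternatives for 25 named genes, the authors' means included, 237 kept the direction. A change of filter leaves the log2 fold change of a gene as it was, so those alternatives kept the direction by construction. The named genes also include the highest and lowest fold changes, which turn least easily, so that this count is no measure of robustness. With 2 libraries per group and unknown depth, small differences of weakly expressed members cannot be resolved. The cause of these changes was not tested. No paired analysis was possible because the groups share only replicate number 1.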
